A study of Mus musculus with 8 samples.

Results

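Filamins and alpha-actinins are the main crosslinkers of actin filaments in muscle and non-muscle cells, and 6 of their genes, Flna, Flnc, Actn1, Actn2, Actn3 and Actn4, were followed here among 19938 genes measured. The genes were taken by name. Each had a single probe set with 1 gene symbol, so no choice between probe sets was needed, and all 6 had a value on every array. All samples came from primary mouse cultures (strain C57Bl6) of aortic smooth muscle cells, used at passage 3 to 4 and held for 24 h in DMEM with 10% FCS. There were 4 samples with 100 nM jasplakinolide and 4 control samples without it, each on 1 Affymetrix array. Jasplakinolide, a cyclic peptide of marine sponges, enters cells and makes their actin filaments more stable. Whether replicates were separate cultures or animals is not in the labels, and p-values therefore rest on a spread that may be technical.

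Filamins are long V-shaped dimers that hold actin filaments together in flexible networks and tie them to integrins and other membrane proteins. Filamin A, from the X-linked gene Flna, is made in most cell types, whereas filamin C, from Flnc, is the filamin of striated muscle, where it lies at Z-discs and at the cell membrane. Alpha-actinins are rod-shaped antiparallel dimers of the spectrin superfamily that bundle actin filaments. Alpha-actinin-1 and alpha-actinin-4 are the isoforms of non-muscle and smooth muscle cells, found at focal adhesions, stress fibres and dense bodies. Alpha-actinin-2 belongs to the Z-discs of cardiac and skeletal muscle, and alpha-actinin-3 to those of fast skeletal fibres.

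With jasplakinolide Flnc rose 1.20-fold, and Flna was 1.16-fold higher without passing the test over all genes. The 4 alpha-actinin genes differed by less, between 0.956-fold for Actn2 and 1.06-fold for Actn3, and none passed. Of the 6 genes, 1 rose and none fell (limma, adjusted p under 0.05), where 0.436% of all genes rose and 0.772% changed in either direction. At an unadjusted p under 0.05, 2 of the 6 were higher (Flna and Flnc) and none lower, where 4.16% of all genes were higher. With the replicate number as a block the count was again 1 gene higher, where 0.813% of all genes rose. On 4 of the 6 genes every jasplakinolide array lay above every control array, against 3.62% of all genes. The median log2 difference of the 6 genes was 0.08, against 0.01 over all genes. The call of Flnc was lost when any 1 of the 8 arrays was left out, so the count of genes that passed was then 0.

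Promoter windows of RefSeq (build GRCm38.p6, 250 bases before to 50 after a start site) were found for 5 of the 6 genes; Actn3 is named only. Both filamin windows are shown because these genes had the largest differences, and that of Actn4 because it holds the same short motif and belongs to the alpha-actinin gene with the smallest difference above 0. Capitals mark CATTCC, the core of the motif of TEAD factors, and GGGCGG, the GC box of Sp1-like factors, each searched on both strands (as GGAATG and CCGCCC on the other one).
Flna, chrX:74246485-74246784, minus strand: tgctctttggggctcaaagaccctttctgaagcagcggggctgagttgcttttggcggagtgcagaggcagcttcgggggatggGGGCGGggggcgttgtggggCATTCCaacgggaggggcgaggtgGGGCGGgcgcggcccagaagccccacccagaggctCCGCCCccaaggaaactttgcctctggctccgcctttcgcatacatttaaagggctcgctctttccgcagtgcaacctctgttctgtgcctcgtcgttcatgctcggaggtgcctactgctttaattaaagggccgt
Flnc, chr6:29432903-29433202, plus strand: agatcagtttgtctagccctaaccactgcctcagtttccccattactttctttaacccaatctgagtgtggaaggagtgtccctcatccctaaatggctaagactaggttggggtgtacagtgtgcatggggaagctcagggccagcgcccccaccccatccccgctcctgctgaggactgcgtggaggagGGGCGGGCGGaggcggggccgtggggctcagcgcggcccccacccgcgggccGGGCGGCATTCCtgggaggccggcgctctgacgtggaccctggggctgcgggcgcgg
Actn4, chr7:28962283-28962582, minus strand: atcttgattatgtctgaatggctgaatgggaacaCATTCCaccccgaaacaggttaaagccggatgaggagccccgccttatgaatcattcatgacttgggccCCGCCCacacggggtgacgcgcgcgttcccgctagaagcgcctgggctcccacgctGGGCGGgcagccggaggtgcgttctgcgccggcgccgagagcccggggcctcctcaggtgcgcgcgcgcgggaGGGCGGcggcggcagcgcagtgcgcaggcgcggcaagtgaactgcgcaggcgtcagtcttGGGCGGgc
CATTCC began 146 bases before the start site of the Flna window, 1 base before that of Flnc and 216 bases before that of Actn4. The start site of the Flna window lies inside the annotated gene (chrX:74223461 to 74249854) and is not its outermost start. In the second window listed for Flnc, whose start site lies downstream, the same CATTCC stood 104 bases before the start. It was in the windows of 3 of the 5 genes, and in 14.7% of all 32851 windows. The windows of Actn1 and Actn2 did not hold these letters. GGGCGG was in the windows of 5 of 5 genes and in 35.7% of all windows. For both motifs the count is of genes and the percentage is of single windows, and Flnc had more than 1 window. In the Flnc window shown, a pair of GC boxes overlap each other and a further one directly adjoins CATTCC. The CArG box, the motif of serum response factor, was in none of the windows of the 5 genes and in 1.63% of all windows. These matches describe letters only, and no binding was measured.

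Among the filamins, Flnc had log2 RMA signals of 11.72, 11.73, 11.77 and 11.77 on jasplakinolide arrays 1 to 4, against 11.56, 11.49, 11.47 and 11.43 on control arrays 1 to 4. The groups did not overlap, and the 4 treated arrays lay closer together (range 0.05) than the 4 control arrays (range 0.12). The means were 11.75 ± 0.03 with jasplakinolide and 11.49 ± 0.05 in control (SD, n = 4 each). Flnc rose by 0.26 ± 0.04 on the log2 scale (SE; 95% interval 0.16 to 0.36, which is 1.12-fold to 1.28-fold; limma, adjusted p = 0.0347 and 0.0474 with the replicate block). All 4 same-numbered pairs were higher with jasplakinolide, by 0.16 in pair 1, 0.24 in pair 2, 0.30 in pair 3 and 0.34 in pair 4. With 1 array left out the difference stayed between 0.24 and 0.28, and the adjusted p lay between 0.0511, without control 1, and 0.146, without control 4. Each of those fits had 1 array fewer. By signed difference Flnc was number 186 of the 19938 genes.

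Flna, the most widely expressed filamin gene, had signals of 12.94, 12.93, 13.04 and 13.05 on jasplakinolide arrays 1 to 4, against 12.77, 12.74, 12.79 and 12.80 on control arrays 1 to 4. Here too the groups did not overlap, and jasplakinolide 3 and 4 stood above jasplakinolide 1 and 2 in a wider treated group (range 0.12) than the control group (range 0.05). Means were 12.99 ± 0.07 with jasplakinolide and 12.78 ± 0.02 in control (SD, n = 4 each). The difference was 0.21 ± 0.05 on the log2 scale (SE; 95% interval 0.11 to 0.32, which is 1.08-fold to 1.25-fold), and it did not pass over all genes (limma, adjusted p = 0.0877, and 0.0524 with the replicate block). Flna was higher with jasplakinolide in all 4 same-numbered pairs, by 0.17 to 0.25. The call turned on the setting: among the brighter 50% of genes Flna passed (adjusted p = 0.0255), as it did when the prior was robust and followed intensity (0.00417).

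**Figure D1:**
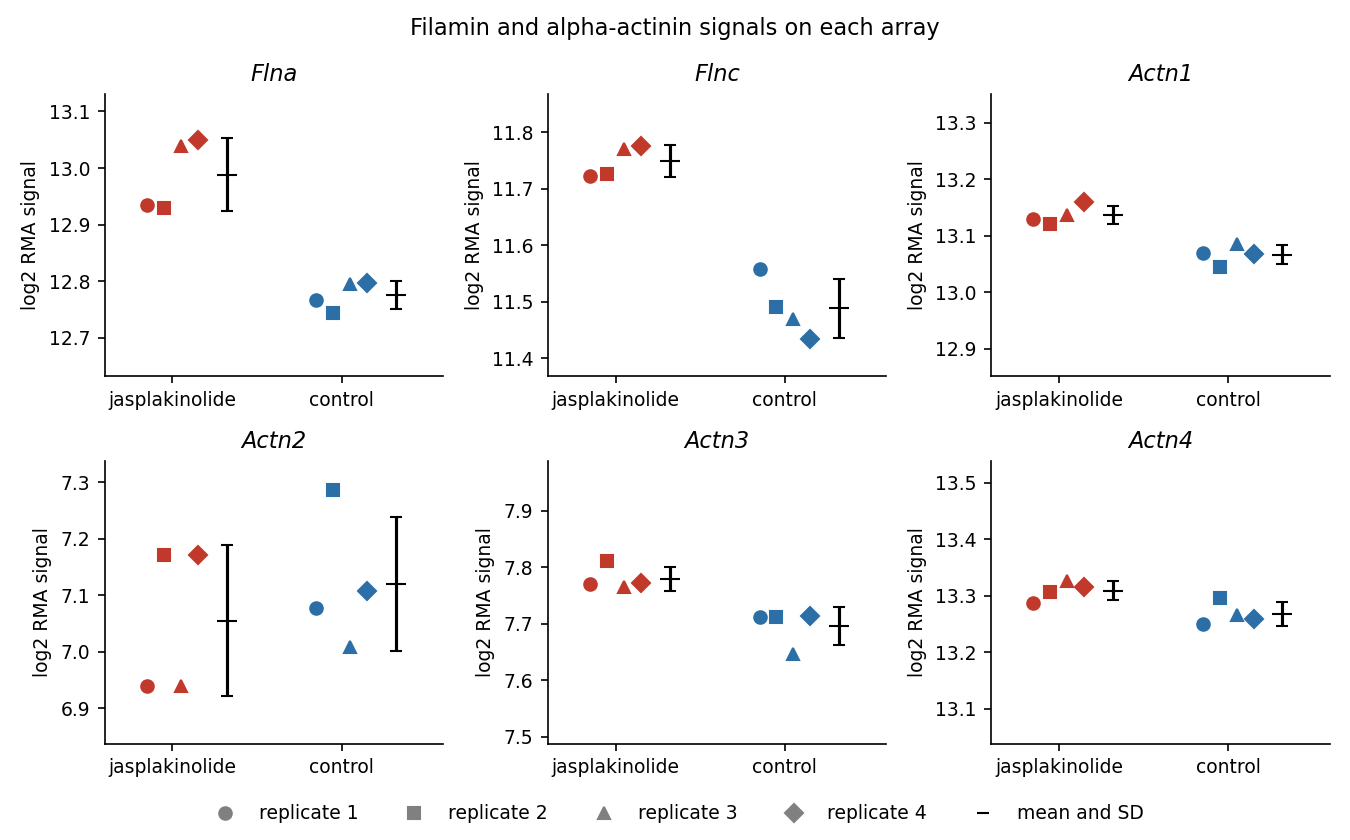
Log2 RMA signal (vertical axis, the same span of 0.5 in each panel) of the 6 genes on each array, jasplakinolide left and control right; symbols give the replicate number and black bars the mean and SD of 4 arrays. The groups do not overlap for Flna, Flnc, Actn1 and Actn3, and they overlap for Actn2 and Actn4.

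Of the alpha-actinins of non-muscle and smooth muscle cells, Actn1 had signals of 13.13, 13.12, 13.14 and 13.16 on jasplakinolide arrays 1 to 4, against 13.07, 13.04, 13.09 and 13.07 on control arrays 1 to 4. The groups did not overlap, though the highest control array and the lowest treated array lay close together. Means were 13.14 ± 0.02 with jasplakinolide and 13.07 ± 0.02 in control (SD, n = 4 each). The log2 difference was 0.07 ± 0.04 (SE; 95% interval -0.02 to 0.16; limma, adjusted p = 0.687), which did not pass. Actn4 had signals of 13.29, 13.31, 13.33 and 13.32 on jasplakinolide arrays 1 to 4, against 13.25, 13.30, 13.27 and 13.26 on control arrays 1 to 4. Control 2 lay above jasplakinolide 1, so the groups overlapped. Its log2 difference was 0.04 ± 0.04 (SE; 95% interval -0.05 to 0.13; limma, adjusted p = 0.882), with means of 13.31 ± 0.02 under jasplakinolide and 13.27 ± 0.02 in control (SD, n = 4 each). The upper limits of these intervals are 1.11-fold for Actn1 and 1.09-fold for Actn4.

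Actn2 and Actn3, the genes of the striated muscle isoforms, were outside the brighter 50% of genes, and no detection calls were used, so whether these cultures express them was not determined. Actn3 had signals of 7.77, 7.81, 7.77 and 7.77 on jasplakinolide arrays 1 to 4, against 7.71, 7.71, 7.65 and 7.71 on control arrays 1 to 4. The groups did not overlap, and 3 of the 4 arrays of each group lay nearly on top of each other. Its log2 difference was 0.08 ± 0.04 (SE; 95% interval -0.01 to 0.17; limma, adjusted p = 0.613), and it did not pass. Actn2 had signals of 6.94, 7.17, 6.94 and 7.17 on jasplakinolide arrays 1 to 4, against 7.08, 7.29, 7.01 and 7.11 on control arrays 1 to 4. It was the 1 gene of the 6 with a lower mean under jasplakinolide, with overlapping groups and the widest spread of the set. The log2 difference was -0.06 ± 0.08 (SE; 95% interval -0.25 to 0.12; limma, adjusted p = 0.922). Its same-numbered pairs went both ways, with 1 of the 4 higher under jasplakinolide. Of 14 other markers of skeletal or cardiac muscle none passed (limma; 1 was higher at an unadjusted p under 0.05), and the ranges of their mean signal overlapped, 7.21 to 7.42 on jasplakinolide arrays and 7.14 to 7.38 on control arrays.

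**Figure D2:**
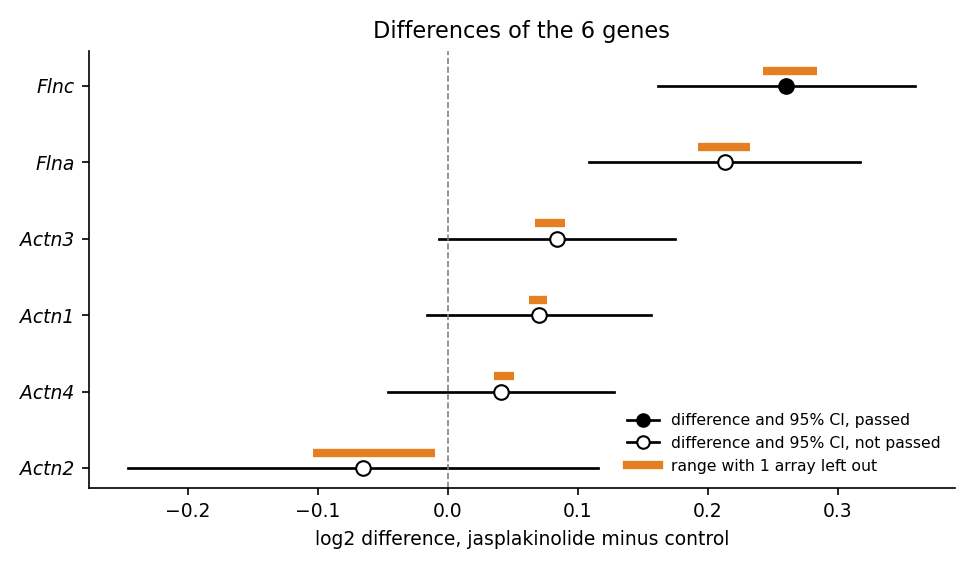
Log2 difference, jasplakinolide minus control (horizontal axis), of the 6 genes with its 95% interval from limma (black line); a filled point passed the test over all genes, and the orange bar is the range when 1 array is left out. The intervals of Flnc (0.16 to 0.36) and Flna (0.11 to 0.32) lie above 0, and those of the 4 alpha-actinin genes reach across it.

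Whether the genes changed unequally was tested on the difference between 2 of them within each array, which cancels shifts of a whole array, for all 15 pairs. Between groups, the log2 difference of Flnc exceeded that of Actn1 by 0.19 and that of Actn4 by 0.22. The difference of Flna exceeded that of Actn1 by 0.14 and that of Actn4 by 0.17. In each of these 4 pairs, and for Flnc against Actn2 (0.33) and Actn3 (0.18), all jasplakinolide arrays lay above all control arrays. Each of the 6 had a p of 0.0286 (exact two-sided permutation test), the smallest possible with 70 splits of 4 against 4 arrays. After Benjamini-Hochberg adjustment over the 15 pairs it was 0.0714, so no pair passed. At this smallest p a pair passes only if most of the 15 pairs reach it too. The test therefore cannot settle whether these 6 pairs changed unequally. Between the 2 filamins the excess of Flnc over Flna was 0.05 with overlapping groups (exact permutation p = 0.343, adjusted p = 0.367). The excess of Actn1 over Actn4 was 0.03, also with overlapping groups (exact permutation p = 0.229, adjusted p = 0.312). These p-values do not show that the 2 filamins, or the 2 alpha-actinins, changed alike.

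**Figure D3:**
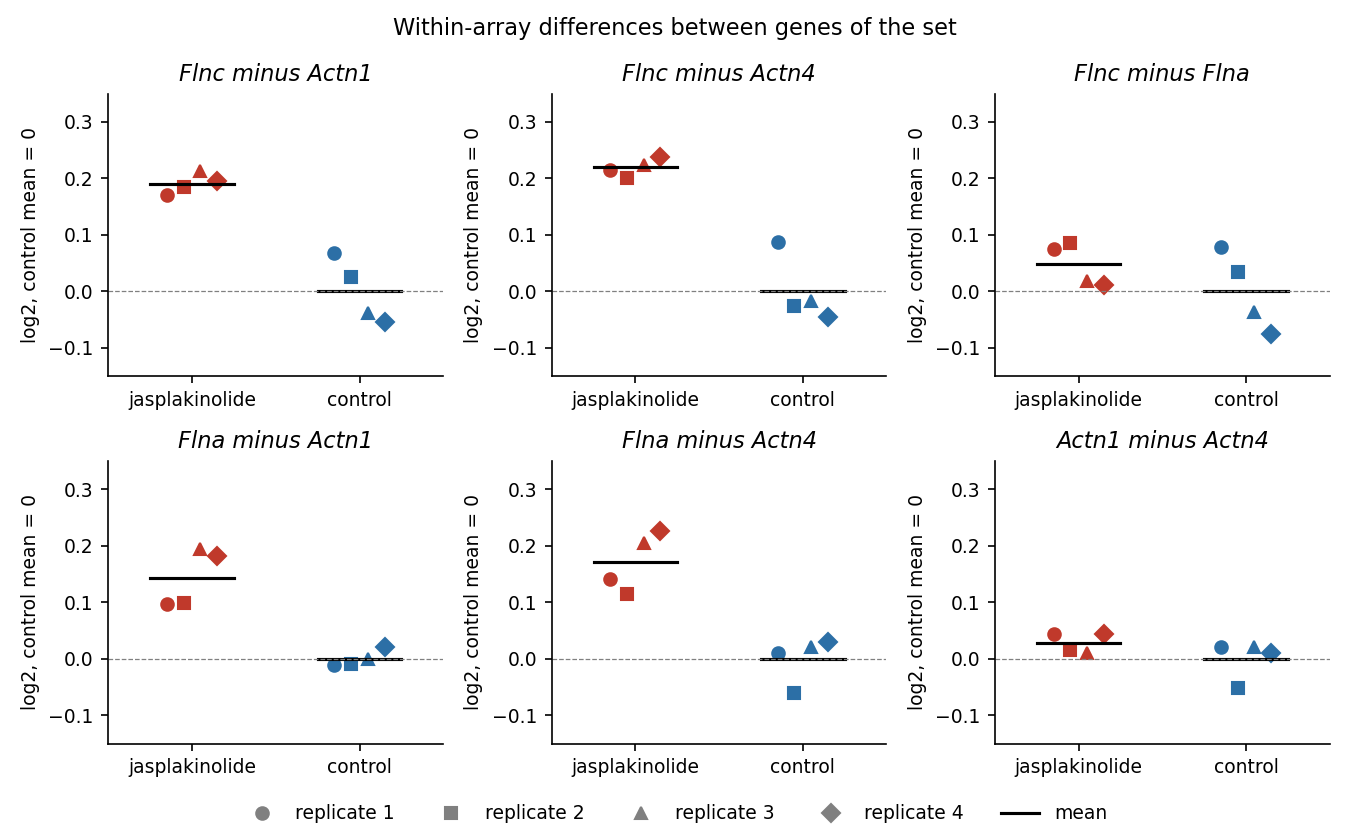
Difference in log2 signal between 2 genes on the same array (vertical axis), set to 0 at the control mean, for 6 of the 15 pairs; jasplakinolide left, control right, symbols give the replicate number and lines the mean of 4 arrays. For Flnc and Flna against Actn1 and Actn4 the jasplakinolide mean lies 0.14 to 0.22 above the control mean with no overlap between groups, while Flnc minus Flna and Actn1 minus Actn4 overlap.

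The 3 genes whose log2 signals were most like those of Flnc were Ptprz1, a receptor-type tyrosine phosphatase (Pearson r = 0.993 over the 8 arrays), Nppb, the B-type natriuretic peptide (0.991), and Bves, a Popeye-domain gene (0.991). All 3 rose far more than Flnc did, by 1.57 ± 0.15, 1.45 ± 0.14 and 1.13 ± 0.07 (SE), and with group means removed their r with Flnc was 0.908, 0.881 and 0.922. Most like Flna were Ncam1, the neural cell adhesion molecule (0.995), Adamts7, a secreted metalloprotease (0.994), and Faap20 of the Fanconi anaemia pathway (0.993), which kept r of 0.979, 0.976 and 0.981 with group means removed. Ncam1 rose by 0.40 ± 0.07 (limma, adjusted p = 0.0408) and Adamts7 by 0.43 ± 0.08 (adjusted p = 0.0441), and both lost the call when any 1 array was left out. Faap20 differed by 0.11 ± 0.04 (SE) and did not pass. Actn1 was most like Lrrc27 (0.989), Rsu1, a partner of the PINCH and ILK adhesion complex (0.987), and Msrb3, a methionine sulfoxide reductase (0.983). Lrrc27 rose by 0.69 ± 0.10 (SE; limma, adjusted p = 0.0227), while Rsu1 (0.15 ± 0.04, adjusted p = 0.162) and Msrb3 (0.29 ± 0.05, adjusted p = 0.0512) did not pass. Msrb3 passed with the replicate block (adjusted p = 0.0389), array weights or the intensity trend with robust prior. It also passed among the brighter 75% or 50% of genes and after a further quantile normalization or median centring. Rsu1 passed among the brighter 50% of genes (adjusted p = 0.0398) and under the intensity trend with robust prior (0.00346). Neither passed in any fit with 1 array left out. Lrrc27 passed in 4 of the 8 fits with 1 array left out. Actn4 was most like Ankrd6 (0.967), Slc2a1, the glucose transporter GLUT1 (0.965), and Npffr1 (0.961), none of which passed. These r values come from the highest among all genes over only 8 arrays that fall into 2 groups, and they describe these arrays.

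Of 25 genes for proteins that bind filamins or take part in their turnover 23 were measured, of which 2 rose, none fell and 21 did not pass (limma; at an unadjusted p under 0.05, 7 were higher and 1 lower). Their median log2 difference was 0.10, and 19 of 23 (82.6%) had a higher mean with jasplakinolide, against 56.4% of all genes. So had 12 of the 14 markers of skeletal or cardiac muscle (85.7%), so a share of this size was not particular to the partners. Over all genes 0.436% rose, and 4.16% were higher at an unadjusted p under 0.05. The 2 filamin partners that rose were Synpo2 and Hspb1, a small heat shock protein. Synpo2, synaptopodin-2, binds filamin C and alpha-actinin and takes part with Bag3 in filamin turnover. Synpo2 had signals of 8.80, 8.71, 9.14 and 9.41 on jasplakinolide arrays 1 to 4, against 7.97, 7.87, 8.22 and 8.05 on control arrays 1 to 4. Both groups lay well apart, and Synpo2 rose by 0.98 ± 0.15 (SE; limma, adjusted p = 0.0219). Hspb1 rose by 0.36 ± 0.05 (SE; limma, adjusted p = 0.0219), with means of 11.62 under jasplakinolide and 11.26 in control. The count of 2 became 0 without jasplakinolide 3, control 1 or control 4, and 1 without jasplakinolide 2 or control 3. The integrin beta-1 gene Itgb1 differed by 0.10 ± 0.04 and Fblim1, which encodes the filamin-binding protein migfilin, by 0.11 ± 0.06 (SE), and neither passed. Hspb7, a small heat shock protein gene named after its value was seen, differed by 0.26 ± 0.06 (SE; adjusted p = 0.104) and did not pass; it passed among the brighter 50% of genes (adjusted p = 0.0410) and under a robust prior that followed intensity (0.0303).

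Of 29 genes for proteins that bind alpha-actinins, 1 rose, Synpo2 again, none fell and 28 did not pass (limma; at an unadjusted p under 0.05, 11 were higher and 1 lower). The median log2 difference was 0.09, and 24 of 29 had a higher mean, against 56.4% of all genes. The lists of filamin and alpha-actinin partners are not independent, since both hold Itgb1, Myot, Myoz1, Myoz2 and Synpo2. Of all genes 0.436% rose, and 4.16% were higher at an unadjusted p under 0.05. On 10 of the 29 the jasplakinolide arrays lay above all control arrays, against 3.62% of all genes. The count that rose was 0 without jasplakinolide 3, control 1 or control 4. It was 2 to 4 after a further quantile normalization, median centring or a filter to the brighter 75% or 50% of genes, and 6 with either array weights or the intensity trend with robust prior. Vcl, the adhesion protein vinculin, differed by 0.17 ± 0.05 (SE; limma, adjusted p = 0.240). Of all settings, Vcl passed only under the intensity trend with robust prior (adjusted p = 0.0427). Zyx, the adhesion protein zyxin, had means of 11.65 with jasplakinolide and 11.66 in control, and the sign of its difference turned with the setting. Named after their values were seen, Pdlim7, a PDZ and LIM domain protein, differed by 0.28 ± 0.05 (SE; adjusted p = 0.0564), Csrp1, a LIM-only protein of smooth muscle, by 0.22 ± 0.04 (adjusted p = 0.0591) and Tln1, talin-1, by 0.17 ± 0.04 (adjusted p = 0.146). All 3 passed among the brighter 50% of genes, with array weights and under the intensity trend with robust prior. Pdlim7 and Csrp1 also passed among the brighter 75% of genes and after median centring, and Csrp1 after a further quantile normalization. None of the 3 passed with the replicate block or in any fit with 1 array left out.

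Of 28 other actin crosslinkers and relatives with spectrin or calponin-homology domains 27 were measured, with 1 rise, 1 fall and 25 that did not pass (limma; at an unadjusted p under 0.05, 5 were higher and 1 lower), where 0.772% of all genes changed. The median log2 difference was 0.03, and 18 of 27 (66.7%) had a higher mean, against 56.4% of all genes. At an unadjusted p under 0.05, 4.16% of all genes were higher. Dmd, dystrophin, a spectrin-family protein that links actin to the membrane, had signals of 8.84, 8.80, 9.16 and 9.05 on jasplakinolide arrays 1 to 4, against 8.02, 7.61, 7.94 and 7.68 on control arrays 1 to 4. The groups lay far apart, with a rise of 1.15 ± 0.11 (SE; limma, adjusted p = 0.00205), and Dmd passed whichever array was left out. Eps8, an actin-capping and bundling protein, fell by 0.41 ± 0.07 (SE; limma, adjusted p = 0.0441), with means of 8.47 under jasplakinolide and 8.87 in control. That call held only without jasplakinolide 4 among the 8 fits with 1 array left out. Nexn, the actin-binding protein nexilin, named after its value was seen, differed by 0.50 ± 0.13 (SE; adjusted p = 0.160); the replicate block brought it past the test (adjusted p = 0.0134).

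**Figure D4:**
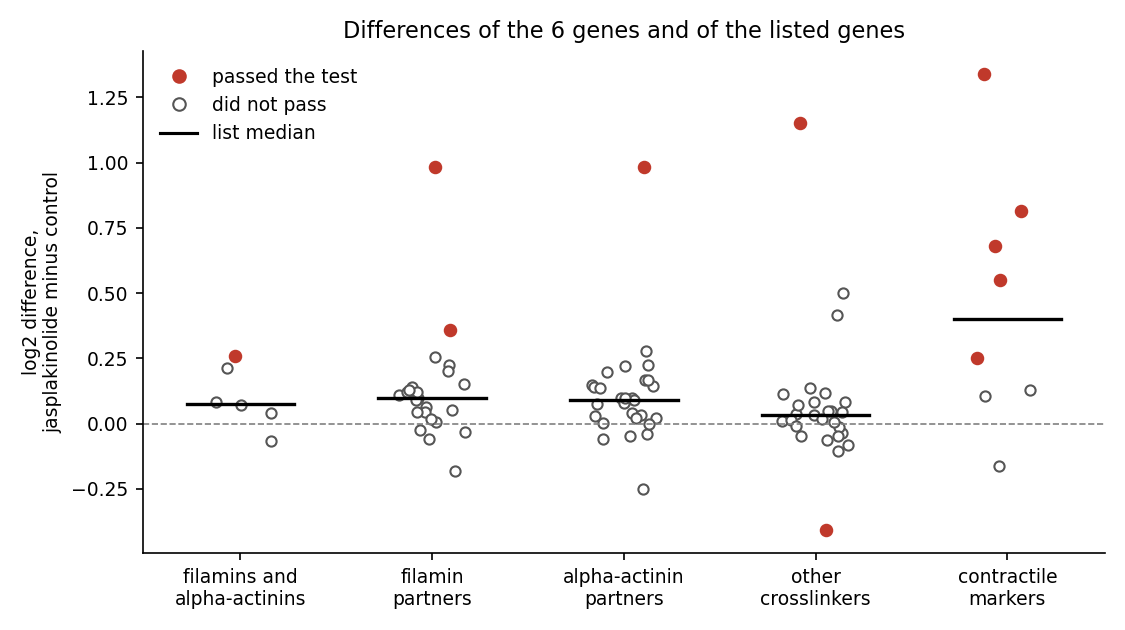
Log2 difference, jasplakinolide minus control (vertical axis), of each measured gene in the set of 6, in the 3 lists of partners and other crosslinkers, and among 8 contractile markers; filled points passed the test and lines are list medians. The medians of the filamin and alpha-actinin partners (0.10 and 0.09) lie close to that of the 6 genes (0.08), and that of the contractile markers is 0.40.

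The arrays had medians of 7.30 to 7.39 log2 over 35556 probe sets. Markers of contractile smooth muscle were measured for all 8 genes listed, of which 5 rose, where 0.436% of all genes rose. Their mean signal was 11.1 to 11.2 on jasplakinolide arrays and 10.6 to 10.8 on control arrays. Of 12 endothelial markers 1 fell beside these differences, where 67 of all 19938 genes fell. The mean signal of the endothelial markers was 10.7 to 10.8 on jasplakinolide arrays and 10.9 on all control arrays. With the replicate block 3 of them fell (Robo4, Tek and Kdr), where 215 of all 19938 genes fell. At an unadjusted p under 0.05, 5 of these markers were lower and none higher, where 939 of all genes were lower. Group means of the single markers ran from 7.74 with jasplakinolide and 7.78 in control for Cldn5 to 13.36 with jasplakinolide and 13.41 in control for Emcn. Control means were also high for Cdh5 (13.17), Eng (12.66), Esam (12.49), Pecam1 (12.48), Erg (11.29) and Tie1 (11.25). They were lower for Robo4 (9.51), Tek (9.44), Kdr (9.07) and Vwf (8.08). Among the contractile markers, control means were 13.41 for Acta2, 12.55 for Tagln, 11.14 for Cnn1 and 8.89 for Myh11. The mean signal of 7 fibroblast markers was 8.16 to 8.23 on jasplakinolide arrays and 8.28 to 8.44 on control arrays, and that of 8 macrophage markers was 7.83 to 7.90 on jasplakinolide arrays and 7.83 to 7.96 on control arrays, with no member of either past the test (limma; at an unadjusted p under 0.05, 2 fibroblast markers were lower, and 1 macrophage marker was higher and 1 lower). With the replicate block 1 of each list fell, Dcn among the fibroblast markers (log2 difference -0.54, adjusted p = 0.0134) and Cd68 among the macrophage markers (-0.24, adjusted p = 0.0424). The part of these other cells in the signals of the 6 genes, or in the differences of Flna and Flnc, was not tested. In bulk samples fewer cells of a type and less RNA per cell cannot be told apart.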

How the data were processed

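Gene expression was measured on 8 arrays. The deposited values are log2 expression levels. Per the submitters' processing notes they were made with RMA and the Affymetrix Expression Console, with no version stated there. RMA corrects background, normalizes quantiles and summarises probes, so small group-wide shifts may be evened out. The values of 35556 probe sets ran from 2.29 to 14.2.

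Probe sets with 1 symbol in the platform annotation (21789) were kept and the brightest per gene taken, which left 19938 genes; 1621 with several symbols and 12146 with none were left out. Symbols were checked against RefSeq by gene identifier (21698 matched, 0 changed). Dim probe sets were kept. The test of jasplakinolide against control was limma 3.58.1 (lmFit and eBayes, two-sided, 6 residual and 3.43 prior degrees of freedom; R 4.3.3), p-values were adjusted by Benjamini-Hochberg over the 19938 genes, and calls were made at an adjusted p under 0.05. Errors beside group means are SDs of the 4 arrays of a group, and errors beside differences are limma's standard errors. Pairs of genes were compared with an exact permutation test. Plots used matplotlib 3.10.9 (Python 3.11.15).

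The 6 genes and the lists were chosen with earlier results of these data known. The text names the 6 genes, up to 8 genes past the test per partner list, Vcl, Zyx, Itgb1, Fblim1 and Dmd, and for Flna, Flnc, Actn1 and Actn4 the 3 genes with the highest Pearson r (predicted genes left out); any other gene is named with its values already known, among them Bag3 and the cell type markers. After group means were removed, same-numbered arrays correlated at 0.241 to 0.563 in all 4 pairs, against -0.618 to 0.521 for other numbers. These ranges overlap, and the labels do not say what the numbers pair. The main fit and the permutation test took no account of the numbers. Samples were paired by number only in the replicate block, the sign-flip test and the same-numbered differences. The replicate number was the only batch tested. Simulated data (19938 genes, 200 changed, 5 runs) had independent normal values with these means and with the spreads that limma had shrunk towards a common value. There the fit found 22.1% of genes shifted by 0.25 log2, 91.9% of those shifted by 0.5 and 100% of those shifted by 1, and 4.55% of its calls were false. The number of arrays limits the precision. Alternatives were the replicate block, filters on dim genes, another normalization or centring, array weights, an intensity trend with robust prior, averaging a gene's probe sets and leaving out each array; leaving out control 2 and jasplakinolide 4 together was added after seeing the data.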

Additional observations from a re-analysis of the deposited data

Results flagged for a closer look

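Among 31 named genes and 62 groups of 4 arrays, 4 groups held an array far from the others, as a gap over the group's range. Chance flags about 1 in 20 groups. Actn3 was highest on jasplakinolide 2 (7.81, against 7.77 on the other treated arrays to 2 decimals; gap over range 0.856) and lowest on control 3 (7.65, against 7.71 on the other controls; 0.964). Bves was highest of the controls on control 1 (8.22, against 7.94 to 7.97; 0.894). Rsu1 was lowest of the controls on control 2 (12.90, against 12.95 to 12.96; 0.853).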

How the results depend on the processing

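With the replicate block no call among the 6 genes changed (Flnc 0.26, adjusted p = 0.0474, and Flna 0.21, adjusted p = 0.0524), and the count of pairs of genes past the sign-flip test was 0 of 15, since 4 pairs of arrays allow no p below 0.125. Under the 16 other settings, and without control 2 and jasplakinolide 4, the 6 genes kept their direction wherever they had a value. Actn2 and Actn3 had none among the brighter 50% of genes. The count of the 6 genes past the test was 2 among the brighter 50% of genes or under the robust prior with an intensity trend, where Flna (0.21) passed too, and 0 without control 2 and jasplakinolide 4, where Flnc differed by 0.25 (adjusted p = 0.0987). With 1 array left out the count was 0, with Flnc at 0.24 to 0.28. The count of filamin partners was then 0 to 2, of alpha-actinin partners 0 to 1 and of other crosslinkers 1 to 2. That of gene pairs was 0, which says little, since a pair passes only if most of the 15 pairs reach the smallest p. Filamin partners past the test numbered 3 among the brighter 50% of genes, with an intensity trend or with array weights, and 1 without control 2 and jasplakinolide 4. Alpha-actinin partners numbered 2 after a further quantile normalization, 3 after median centring or among the brighter 75%, 4 among the brighter 50%, and 6 with an intensity trend or array weights. Zyx turned to 0.00996 after median centring, 0.031 with array weights and 0.0036 without control 2 and jasplakinolide 4, and lay between -0.026 and 0.022 with 1 array left out. The cause of these changes was not tested, beyond the smaller number of genes or arrays in a fit. In the simulation 22.1% of genes shifted by 0.25 log2 were found, averaged over genes drawn at random, each with its spread as shrunk by limma. The share was not worked out for a gene with the signal and spread of Flna.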
